A study of Mus musculus with 6 samples.

Results

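The lysosomal hydrolases and membrane proteins were read as a list of 45 genes taken by symbol, drawn up with earlier results of these data known, and all 45 were among the 12968 genes of the deposited table. They comprised 10 cathepsins and other peptidases, 12 glycosidases, 5 sulfatases, 9 lipid hydrolases and lipid-handling proteins, 7 membrane proteins, and the genes for progranulin and the transcription factor TFEB. RNA was precipitated with tagged ribosomes (RiboTag) from the middle section of the left brain hemisphere of 6 mice. In 3 mice the middle cerebral artery had been occluded for 1 h (MCAO, a stroke model), and 3 control mice had no occlusion. All animals were killed after 3 days; the labels describe no sham operation and give no Cre driver, strain, age or sex. The series title places the study in the astrocyte transcriptome as a search for stroke targets. Values are scaled read counts, meaning the reads of a gene after division by the scale factor of its library.

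Lysosomes break down proteins, glycans and lipids delivered by endocytosis, phagocytosis and autophagy, with acid hydrolases that work at the low pH set by a proton pump in the membrane. Most soluble hydrolases reach the organelle through mannose 6-phosphate tags, and loss of a single one gives a storage disease, many of which damage the brain. TFEB binds a short palindromic element, known as CLEAR, in the promoters of many lysosomal genes. In the brain all cell types have lysosomes, and phagocytic microglia and macrophages are especially rich in cathepsins.

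The shallowest library, MCAO 2, held 882263 recovered reads and the deepest, control 1, held 9519548. Astrocyte markers were abundant, with summed scaled reads of 34401 to 46609 after MCAO and 30033 to 49377 in controls for 15 genes. Neuronal markers were abundant as well, at 21460 to 25524 and 23781 to 27446 for 14 genes. Among these markers, Gfap, the filament gene of reactive astrocytes, rose (log2 change 3.45, SE 0.18). Of the 15 astrocyte genes 1 was called higher and 0 lower, beside 2.3% and 0.789% of all genes tested. A negative log2 change was seen in 11 of the 15 (median -0.15), beside 6442 of all 12549 genes tested. Of the 14 neuronal genes 0 were called higher and 3 lower, beside 2.3% and 0.789% of all genes tested. The 3 were the striatal neuron genes Drd1 (-1.48, SE 0.23), Drd2 (-1.99, SE 0.30) and Ppp1r1b (-0.80, SE 0.15). The other 11 were not called, and the median of the 14 was -0.10. The part of these astrocyte and neuronal markers in the lysosomal results was not tested. Each library is 1 animal. The lowest read number behind any member in any library was 4, so the low genes carry the most counting error.

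Of the 45 lysosomal genes 13 rose after MCAO and 0 fell, 28.9% of the members against 2.3% of all 12549 genes tested that rose and 0.789% that fell (limma, Benjamini-Hochberg adjusted p under 0.05 over all genes tested). Their log2 changes ran from -0.45 to 2.43 with a median of 0.28, beside a median of -0.01 over all genes tested. In 17 members all 3 MCAO libraries lay above all 3 controls (37.8%), beside 12.4% of all genes, and in 1 member all lay below, beside 12.5% of all genes. The rises were spread unevenly over the classes. There were 7 among 10 peptidases (median 0.85), 3 among 12 glycosidases (0.55), 0 among 5 sulfatases (-0.05), 0 among 9 lipid genes (0.01), 2 among 7 membrane proteins (0.15), and progranulin. Differences between the classes were not tested. edgeR on recovered reads called 14 members higher, against 3.06% of all genes, and 0 lower, against 1.08%. DESeq2 on the same reads called 14 higher, against 3.09%, and 0 lower, against 1.28%, and limma with library weights called 15 higher, against 4.51%, and 0 lower, against 3.47%. The 32 members that were not called had a median log2 change of 0.06.

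**Figure D1:**
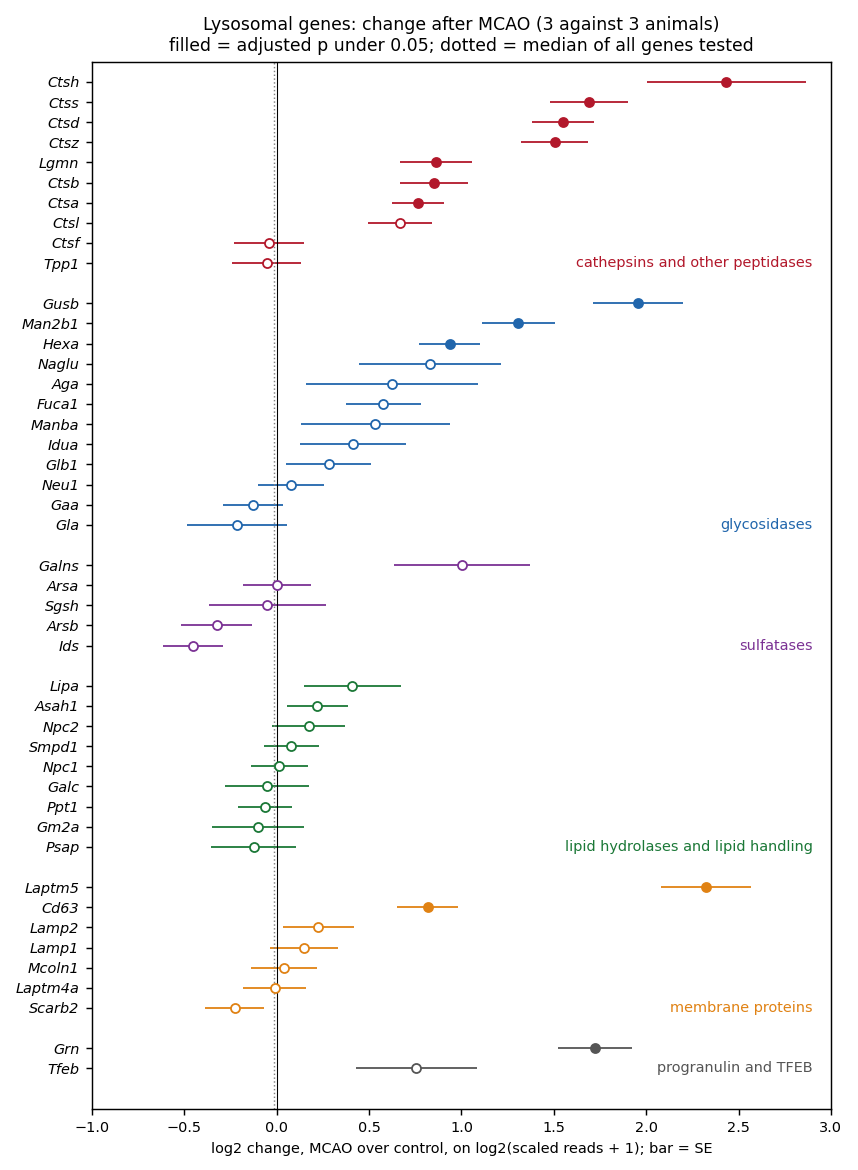
Log2 change after MCAO for the 45 lysosomal genes, ordered within each class, on the log2(scaled reads + 1) scale with SE bars. Filled points passed the test (13 genes, all to the right of 0), open points did not; 9 of 9 lipid genes and 5 of 5 sulfatases are open.

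Markers of microglia, the resident phagocytes of the brain, were higher in the same MCAO libraries. All 18 listed markers were in the table with no value at the floor of the table, and their median log2 change was 1.61. Of the 18 markers 10 rose and 0 fell, beside 2.3% and 0.789% of all genes tested. In 8 of the 18, Tyrobp among them, the control mean was under the filter of 10, so that they were tested because of their MCAO values, and 4 of the 8 rose. Of the other 10 markers 6 rose, with a median of 1.46. Their summed level was 2313, 1723 and 2026 scaled reads in MCAO 1, 2 and 3, against 503, 651 and 528 in controls 1, 2 and 3. Tyrobp, an adaptor of myeloid receptors, rose by 3.70 on the log2 scale (SE 0.52) and C1qb, a chain of complement C1q, by 3.49 (SE 0.26). MCAO 2 had the lowest microglial sum of the 3 occluded animals, and it was also the lowest of the 3 in 10 of the 13 risen lysosomal genes. It was the lowest in uncalled members as well, such as Gaa and Ids, though not in Psap. How often MCAO 2 was the lowest among all uncalled members or all genes was not counted. Whether its low values go with its microglial sum was not tested. MCAO 2 was the shallowest library too. Of 18 blood myeloid markers only 3 were in the table, with sums of 74.7 to 179 after MCAO and 18.1 to 30.2 in controls. Fn1 (log2 change 2.84, SE 0.40) and Csf3r (2.51, SE 0.57) rose, Csf3r with a control mean of 2.86 under the filter, and Mrc1 was too low to be tested. Fn1, the gene of the matrix protein fibronectin, held on average 101 of the 134 scaled reads of the sum after MCAO. In controls it held 12.7 of 23.9. The sum thus mostly follows Fn1 and is no measure of blood myeloid cells. Oligodendrocyte markers were higher as well, with 4 of 10 risen, beside 2.3% of all genes tested, and a median of 0.61. In bulk precipitates, more cells of a type and more RNA per cell cannot be told apart, and the part of these markers in the lysosomal result was not tested.

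Cathepsins and their relatives, which cut proteins in the lysosome, held 7 of the 13 rises. Ctsd (cathepsin D, the main aspartic protease; chr7:142375910-142387827, mm10) had 4407, 3549 and 4919 scaled reads in MCAO 1, 2 and 3, against 1389.8, 1393 and 1585 in controls 1, 2 and 3. The groups were far apart and the controls close together. Its mean was 2.95-fold higher, with a log2 change of 1.55 (SE 0.17, limma adjusted p = 0.000119). Ctsb (cathepsin B, a cysteine protease; chr14:63122462-63145923) had 3966, 3104 and 4124 scaled reads after MCAO, against 2047, 1714 and 2473 in controls. This was a smaller step, at 0.85 on the log2 scale (SE 0.18, limma adjusted p = 0.0234).

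Further cysteine protease genes rose as well. Ctss (cathepsin S, prominent in antigen-presenting myeloid cells; chr3:95526786-95556405) stood at 291, 205 and 254 scaled reads in MCAO 1, 2 and 3, against 62.7, 103 and 67.9 in the controls. The groups were well apart, and the log2 change was 1.69 (SE 0.21, limma adjusted p = 0.000463). For Ctsz (cathepsin Z, a carboxypeptidase; chr2:174427494-174439039) the libraries held 347, 457 and 370.3 scaled reads after MCAO, against 145, 108 and 162 in controls. MCAO 2, low in most of the risen genes, was the highest here (1.50, SE 0.18, limma adjusted p = 0.000314). Ctsh (cathepsin H, an aminopeptidase; chr9:90054267-90076095) had 78.3, 37.3 and 49.95 scaled reads after MCAO, against 5.18, 8.87 and 15.1 in controls. These values rest on 133, 12 and 75 reads in MCAO 1, 2 and 3 and on 18, 5 and 10 reads in controls 1, 2 and 3. Its log2 change of 2.43 (SE 0.43, limma adjusted p = 0.00667) was the highest of the 45, and it was the single member whose control mean, 9.71, lay under the filter of 10, so that it was tested because of its MCAO values.

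Lgmn (legumain, an asparagine-specific protease that activates other hydrolases; chr12:102394082-102439728) had 788, 501 and 787 scaled reads in MCAO 1, 2 and 3, against 402, 298 and 432 in controls. Its MCAO 2 value stood only a little above control 3, and the log2 change was 0.86 (SE 0.20, limma adjusted p = 0.0303). Ctsa (cathepsin A, which also holds neuraminidase and beta-galactosidase together in 1 complex; chr2:164832872-164841032) had 547, 544 and 592 scaled reads, against 346, 298 and 347 in controls (0.76, SE 0.14, limma adjusted p = 0.00815). The 3 remaining peptidases did not pass. Ctsl (cathepsin L) had 777, 560 and 755 scaled reads after MCAO and 411, 376 and 531 in controls, without overlap, and fell just short of the threshold (0.67, SE 0.17, limma adjusted p = 0.0540). Ctsf, at 224 ± 17.8 and 235.5 ± 61.7 scaled reads (SD, n = 3 each), and Tpp1, the tripeptidyl peptidase lost in a childhood ceroid lipofuscinosis, at 335.5 ± 40.3 and 354 ± 83.8, overlapped between the groups.

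Among the peptidases the calls of Ctsd, Ctss, Ctsz and Ctsh did not depend on any of 17 alternatives, save that Ctsh fell out of the genes tested under 1 of them, a minimum mean of 50. Ctsb was not called without MCAO 1, MCAO 3 or control 1 or with no intensity trend (limma adjusted p 0.0686 to 0.141), Lgmn without MCAO 1, MCAO 3, control 1 or control 2 or with no trend (0.0606 to 0.184), and Ctsa without MCAO 3 or with no trend (0.0558 and 0.0881), while Ctsl was called under 8 of the 17. The annotated spans of Ctsa, Ctsb and Ctsz overlap those of Pltp, Fdft1 and Nelfcd. Whether the counting used strand was not stated, so the split of shared reads is uncertain; these neighbours had log2 changes of -0.43, -0.21 and 0.29, and none was called. Microglia markers (median 1.61) and oligodendrocyte markers (median 0.61) were higher after MCAO too, and their part in the peptidase rises was not tested.

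**Figure D2:**
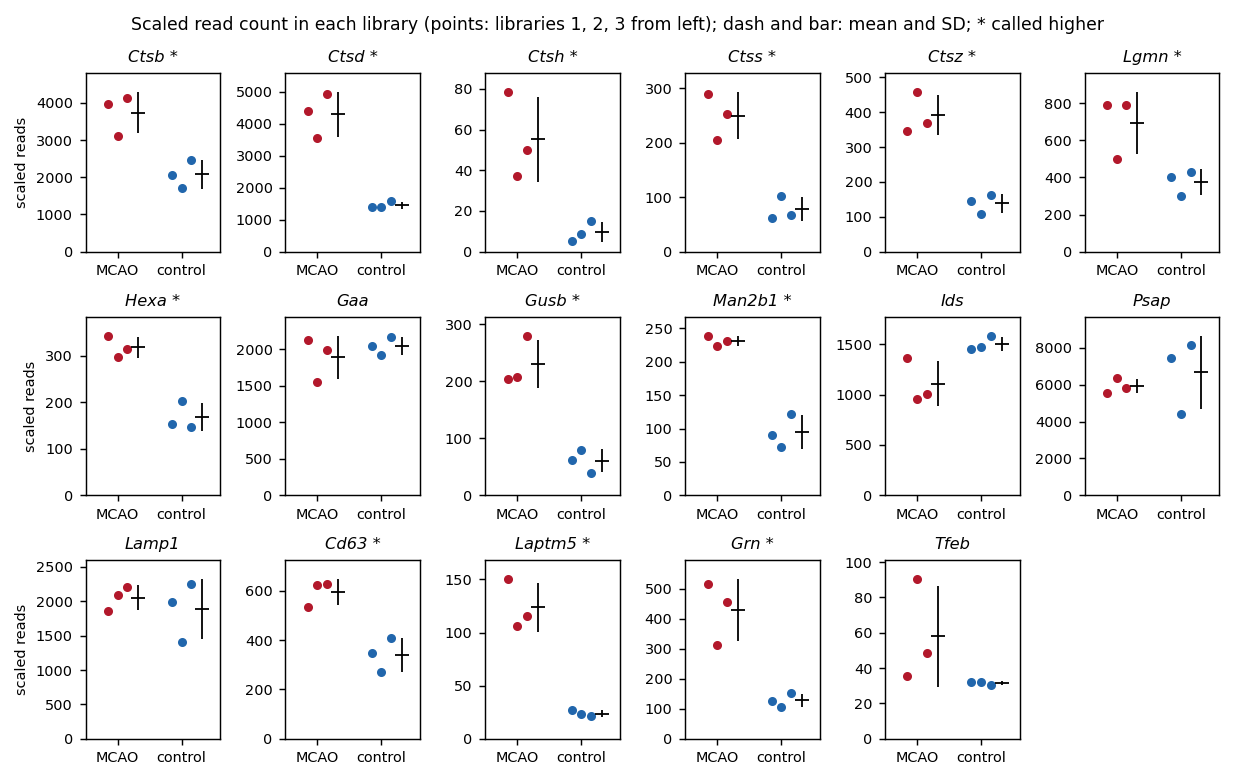
Scaled read count of each library for 17 lysosomal genes, with MCAO libraries (red) left of controls (blue); a dash and bar give mean and SD, each axis starts at 0, and an asterisk marks a gene that passed the test. Ctsd, Gusb, Man2b1, Laptm5 and Grn show wide gaps between the groups, and Gaa, Psap and Lamp1 overlap.

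Glycosidases, which strip sugars from glycoproteins, glycolipids and glycosaminoglycans, rose in 3 of 12 cases. Gusb (beta-glucuronidase, an enzyme of glycosaminoglycan breakdown; chr5:129989011-130003049) had 204, 208 and 279.7 scaled reads in MCAO 1, 2 and 3, against 62.5, 79.8 and 39.2 in controls 1, 2 and 3. No control came near the MCAO range, and the mean was 3.81-fold higher (log2 change 1.96, SE 0.24, limma adjusted p = 0.000418). Man2b1 (lysosomal alpha-mannosidase; chr8:85082730-85098739) stood at 239, 224 and 231 scaled reads after MCAO, a tight group, against 89.8, 72.7 and 122 in controls (1.31, SE 0.20, limma adjusted p = 0.00181). Hexa (the alpha subunit of beta-hexosaminidase, lost in Tay-Sachs disease; chr9:59539540-59565109) had 343, 299 and 315 scaled reads, against 154, 202 and 146 in controls (0.94, SE 0.17, limma adjusted p = 0.00667). Hexa was not called with no intensity trend (limma adjusted p = 0.0763).

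Gaa (acid alpha-glucosidase, which degrades glycogen; chr11:119267963-119285458) had the most reads of the class and did not move with these. It had 2121, 1555 and 1988 scaled reads after MCAO, against 2044, 1927 and 2173 in controls, with overlapping groups and a 95% interval of the log2 change from -0.48 to 0.22. Beside Ctsa, the other enzymes of its complex stayed under the threshold, with log2 changes of 0.08 (SE 0.18) for Neu1, the sialidase, and 0.28 (SE 0.23) for Glb1, the beta-galactosidase. The difference between Ctsa and these partners was not tested. The annotated span of Glb1 overlaps that of Tmppe (-0.62, SE 0.24, not called), so the split of their shared reads is uncertain. Fuca1 (alpha-fucosidase) had 164, 205 and 187 scaled reads, against 124, 94.0 and 162, without overlap (0.58, SE 0.20, limma adjusted p = 0.143). The remaining uncalled glycosidases were Gla, Manba, Naglu, Idua and Aga, with log2 changes from -0.22 (Gla) to 0.83 (Naglu); Manba was spread widely after MCAO, at 85.3, 21.8 and 57.3 scaled reads. Microglia and oligodendrocyte markers were higher in the same libraries as the 3 risen glycosidases, and their part in these rises was not tested.

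Sulfatases, which remove sulfate from glycosaminoglycans and sulfatides, showed no call in 5 genes, and edgeR called 0. Over all genes tested limma called 2.3% higher and 0.789% lower, and edgeR 3.06% and 1.08%. A class of 5 can hold 0 calls at those shares. At an unadjusted limma p under 0.05 were 2 of the 5, beside 2420 of all 12549 genes tested. Galns was called with library weights (limma adjusted p = 0.0210). Ids (iduronate sulfatase, lost in Hunter syndrome; chrX:70343069-70385834) had 1365, 958 and 1004 scaled reads after MCAO, against 1452, 1469 and 1583 in controls. It was the single member with all MCAO libraries below all controls, and its log2 change of -0.45 (SE 0.16, limma adjusted p = 0.145) did not pass. Galns, an enzyme of keratan sulfate breakdown, leaned the other way, at 28.2, 28.0 and 47.3 scaled reads against 14.7, 21.3 and 13.6 (1.00, SE 0.37, limma adjusted p = 0.159). Arsa, the arylsulfatase that degrades myelin sulfatide, had 114 ± 4.18 scaled reads after MCAO and 114.5 ± 19.0 in controls (SD, n = 3 each). Arsb and Sgsh had log2 changes of -0.33 (SE 0.19) and -0.05 (SE 0.32).

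Lipid hydrolases and lipid-handling proteins gave the flattest class. None of 9 was called by limma or by edgeR. Limma called 2.3% of all genes tested higher and 0.789% lower, so a class of 9 can hold 0 calls at those shares. At an unadjusted p under 0.05 were 0, beside 2420 of all 12549 genes. In all 9 the groups overlapped, as they did in 9425 of the 12549. Log2 changes lay between -0.13 and 0.41, and the 95% intervals of the 9 genes together spanned -0.63 to 0.98. Psap (prosaposin, the precursor of the saposins that present sphingolipids to their hydrolases; chr10:60277628-60302600) had 5574, 6348 and 5833 scaled reads after MCAO, against 7446, 4417 and 8139.9 in controls. Control 2 was the low one, and the 3 MCAO values fell inside the control range (log2 change -0.13, SE 0.23, limma adjusted p = 0.811). Without control 2 the log2 change of Psap was -0.40 (limma adjusted p = 0.175). Gm2a, the activator of GM2 ganglioside breakdown by hexosaminidase A, showed the same spread of controls, at 366, 429 and 448 scaled reads after MCAO against 593, 259 and 564. Hexa rose, and its activator gene did not pass (-0.10, SE 0.25).

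The other lipid genes did not pass either. Smpd1 (acid sphingomyelinase) averaged 423 ± 15.3 scaled reads after MCAO and 403 ± 60.0 in controls, and Asah1 (acid ceramidase) 204 ± 20.3 and 175 ± 19.8 (SD, n = 3 each). Galc, which degrades the myelin lipid galactosylceramide, stood at 90.0 ± 3.55 and 96.5 ± 31.9, while oligodendrocyte markers had a median log2 change of 0.61 in the same libraries. Npc1 and Npc2, which pass cholesterol out of the lysosome, had log2 changes of 0.01 (SE 0.15) and 0.17 (SE 0.20). Lipa, the acid lipase for cholesteryl esters, had 80.01, 74.7 and 102 scaled reads, against 62.7, 44.4 and 92.1 (0.41, SE 0.26, limma adjusted p = 0.423), and Ppt1, a palmitoyl-protein thioesterase, -0.07 (SE 0.15).

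Membrane proteins of the lysosome divided into 2 that rose and 5 that did not pass. Laptm5 (a transmembrane protein of blood and myeloid cells; chr4:130912890-130936148) had 150.0, 106 and 116 scaled reads in MCAO 1, 2 and 3, against 27.1, 23.1 and 21.1 in controls 1, 2 and 3. The mean was 5.22-fold higher and the log2 change was 2.33 (SE 0.24, limma adjusted p = 9.73e-05). Cd63 (a tetraspanin of late endosomes, lysosomes and exosomes; chr10:128896231-128912822) had 535, 622 and 627 scaled reads, against 346.5, 269.6 and 407 in controls (0.82, SE 0.17, limma adjusted p = 0.0164). Cd63 was not called without MCAO 2, MCAO 3 or control 1 or with no intensity trend (limma adjusted p 0.0502 to 0.143). Microglia and oligodendrocyte markers were higher in the libraries in which both genes rose, and their part was not tested.

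The structural membrane proteins of every lysosome did not pass the test. Lamp1 (chr8:13159161-13175338) had 1860, 2087 and 2212 scaled reads after MCAO, against 1987, 1407 and 2258 in controls, and the groups overlapped (0.15, SE 0.18, 95% interval -0.24 to 0.54). Lamp2, which also serves chaperone-mediated autophagy, had a log2 change of 0.22 (SE 0.19). Scarb2, the receptor that carries glucocerebrosidase to the lysosome, was at -0.23 (SE 0.16), Laptm4a at -0.01 (SE 0.17) and the calcium channel gene Mcoln1 at 0.04 (SE 0.18). Laptm4a, of the same family as Laptm5, had 930.3 ± 66.1 scaled reads after MCAO and 953 ± 205 in controls (SD, n = 3 each).

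Progranulin rose, and the gene of TFEB did not pass the test. Grn (progranulin, a secreted and lysosomal glycoprotein whose loss causes frontotemporal dementia and lipofuscinosis; chr11:102430507-102436809) had 515, 314 and 456 scaled reads after MCAO, against 125, 106 and 152 in controls. Each MCAO library was above every control, the mean was 3.35-fold higher and the log2 change was 1.72 (SE 0.20, limma adjusted p = 0.000224). Microglia and oligodendrocyte markers were higher in the same libraries, and their part in the rise of Grn was not tested. Tfeb (chr17:47737037-47792416) had 35.3, 90.2 and 48.6 scaled reads in MCAO 1, 2 and 3, against 32.2, 31.9 and 30.2 in controls. MCAO 2 was far above the others on 29 reads, MCAO 1 hardly above the controls, and the log2 change of 0.76 (SE 0.33, limma adjusted p = 0.226) did not pass. Without MCAO 2 it was 0.39.

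**Figure D3:**
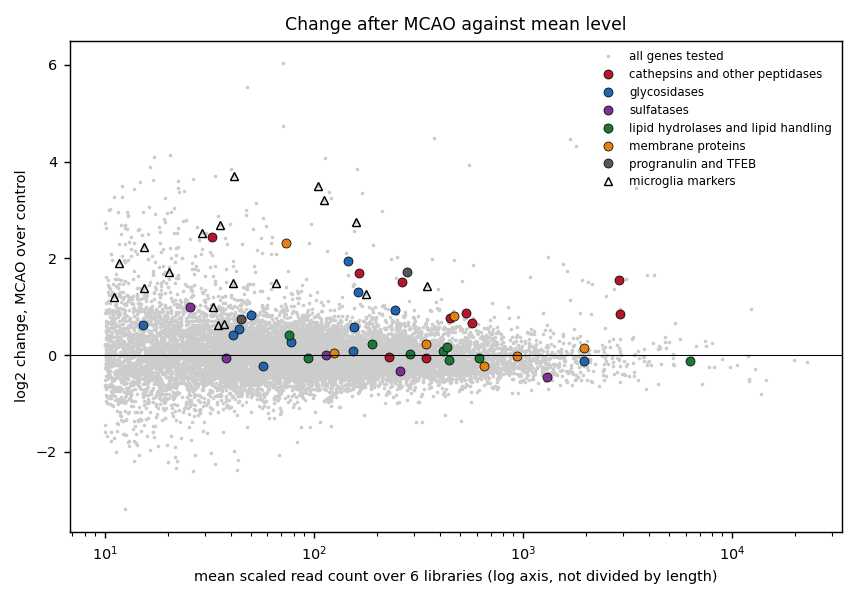
Log2 change after MCAO (y) against the mean scaled read count of each gene over 6 libraries (x, log axis, not divided by gene length), with all 12549 genes tested in grey, lysosomal genes coloured by class and microglia markers as triangles. Ctsd lies at 1.55 and Ctsb at 0.85 toward the right, and the lipid genes lie between -0.13 and 0.41.

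Other parts of the lysosomal system were read from lists of their own. Of 24 further lysosomal hydrolase and membrane genes that could be tested 5 rose and 0 fell (median 0.30). Over all genes tested 2.3% rose and 0.789% fell. Among the 5 were Cd68, Gpnmb, Ctsc and Lyz2. Cd68, the lysosomal membrane glycoprotein of phagocytes, had 82.4, 59.1 and 83.9 scaled reads after MCAO, against 4.03, 1.77 and 9.05 in controls (log2 change 3.86, SE 0.47, limma adjusted p = 0.000358). Cd68 and Gpnmb, with control means of 4.95 and 7.04, were tested because of their MCAO values. Of the other 22 genes 3 rose, with a median of 0.21. Gpnmb, a glycoprotein of phagocytes under lysosomal load, had 34.7, 31.1 and 48.0, against 8.06 and 12.1 in controls 1 and 3 and the table's floor in control 2. Its log2 change of 2.63 (SE 0.62, limma adjusted p = 0.0353) depends on that floor value.

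The vacuolar proton pump, which acidifies the lysosome and also synaptic vesicles, had 0 of 18 genes called by limma or edgeR. Over all genes tested limma called 2.3% higher and 0.789% lower, so lists this short can hold 0 calls at those shares. The median log2 change of the pump was 0.17. At an unadjusted p under 0.05 were 5 of its genes, beside 2420 of all 12549 genes tested. In 7 of the 18 all MCAO libraries lay above all controls (38.9%, beside 12.4% of all genes). Atp6v1b2 had 2617 and Atp6v0c 2045 scaled reads on average after MCAO, against 2717 and 1597 in controls. Sorting genes of the mannose 6-phosphate route had 0 of 13 called by either tool (0 at an unadjusted p under 0.05; median 0.07), among them Sorl1 (-0.05, SE 0.20) and Sort1 (-0.27, SE 0.16). Autophagy genes had 0 of 21 called by either tool (2 at an unadjusted p under 0.05; median 0.01), with Sqstm1, the cargo receptor p62, at 0.23 (SE 0.14) and Gabarapl1 at 0.02 (SE 0.14). Among 17 genes of the TFEB family and of mTORC1 at the lysosome, 0 were called by either tool (5 at an unadjusted p under 0.05; median 0.03), with Rragd at -0.50 (SE 0.15, limma adjusted p = 0.0862) and Rraga at -0.12 (SE 0.15).

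Cathepsin inhibitors were represented by 2 of 7 listed genes. Cst3 (cystatin C, the secreted inhibitor of cysteine cathepsins) averaged 7008 ± 1586 scaled reads after MCAO and 6429 ± 2363 in controls (SD, n = 3 each), with overlapping groups. Cstb (cystatin B, the cytosolic inhibitor) had 70.6, 56.0 and 67.3, against 37.99, 31.9 and 40.7, without overlap, at a log2 change of 0.79 (SE 0.25, limma adjusted p = 0.0993). Neither was called by limma or by edgeR.

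**Figure D4:**
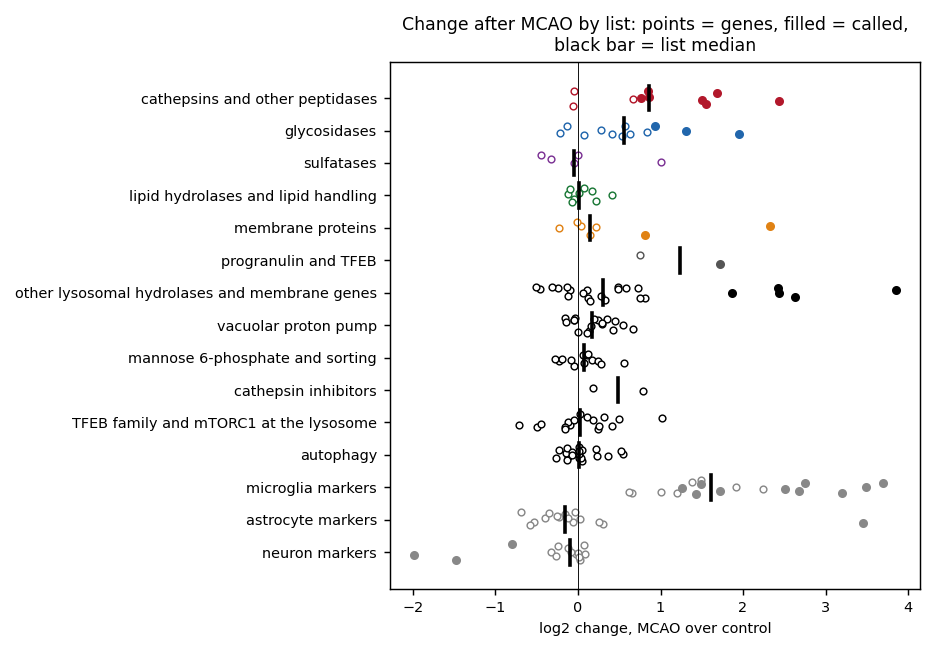
Log2 change after MCAO of each gene in the 6 classes of lysosomal genes, in 6 lists of other lysosome and autophagy genes, and in microglia, astrocyte and neuron markers; filled points passed the test in either direction and a black bar is the list median. Microglia markers have a median of 1.61 and peptidases of 0.85, while the pump, sorting, mTORC1 and autophagy lists have medians of 0.17, 0.07, 0.03 and 0.01 and no filled point.

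Because many lysosomal promoters carry the CLEAR element bound by TFEB, the promoter sequences of the members were searched, on both strands, for its core CACGTG, for the longer TCACGTGA and for the full palindrome, which is TCACGTGA with G before it and C after it. Each longer form contains the shorter ones. RefSeq promoters (GRCm38.p6, the assembly of mm10, 250 bases before to 50 after the start) were matched by symbol for 39 of 45 members; Ctsb, Ctsh, Aga, Galns, Asah1 and Npc1 had no entry. The core stood in 13 of the 39 (33.3%), beside 12% of 9367 tested genes with a promoter. TCACGTGA stood in 4 (10.3%), beside 2.23%, and the full palindrome in 0, beside 0.811%. Members that rose held the core in 3 of 11 promoters and members that were not called in 10 of 28. For TCACGTGA the numbers were 2 of 11 and 2 of 28. The windows below show the 3 risen genes with the element (Ctsa, Ctsd and Lgmn) and 3 of the 10 uncalled genes with it (Lamp1, Mcoln1 and Gla). These 3 are the uncalled genes with more than 1 motif, and the other uncalled genes with the element had 1 each. They are thus not typical of the uncalled genes. The windows are written on the gene's strand, with capitals at TCACGTGA, or at the core where the longer form is absent. The windows of Ctsa and Lgmn belong to a start inside the annotated span of the gene, one of 2 starts in the table.
Ctsa, chr2:164833740-164833802, plus strand: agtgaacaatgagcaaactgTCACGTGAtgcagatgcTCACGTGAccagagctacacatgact
Ctsd, chr7:142387899-142387946, minus strand: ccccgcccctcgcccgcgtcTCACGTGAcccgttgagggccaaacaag
Lgmn, chr12:102439116-102439161, minus strand: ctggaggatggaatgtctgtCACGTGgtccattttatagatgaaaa
Lamp1, chr8:13159080-13159171, plus strand: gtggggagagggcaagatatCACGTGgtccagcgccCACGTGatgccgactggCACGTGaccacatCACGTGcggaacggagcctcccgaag
Mcoln1, chr8:3500428-3500500, plus strand: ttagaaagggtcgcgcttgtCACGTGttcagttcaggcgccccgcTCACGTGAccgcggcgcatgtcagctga
Gla, chrX:134601173-134601253, minus strand: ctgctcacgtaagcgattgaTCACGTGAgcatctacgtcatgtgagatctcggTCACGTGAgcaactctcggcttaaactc

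Lamp1, with 4 cores in this window, had a log2 change of 0.15, and Ctsd, with 1 longer form here and 1 more core farther upstream, had 1.55. Whether the number of motifs goes with the change was not tested. The promoters of Ctss, Ctsz, Gusb, Man2b1, Hexa, Cd63, Laptm5 and Grn, which rose, held none of the 3 motifs in the searched bases. A match is a run of letters and not a measured binding site, and TFEB binding was not measured here.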

How the data were processed

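Ribosome-bound RNA was sequenced from 3 MCAO and 3 control mice, 1 library per animal. The authors deposited a normalised signal per gene. The values show that it was made by dividing reads by a scale factor of the library, and that anything under 1 was set to 1. Per the submitters' processing notes, the build was mm10, and the programs were DESeq2, R 3.3.1, Partek 6.6, HISAT2 and CASAVA 1.8, in no stated role. Counting and strand settings were not stated. Whole reads could be recovered from the step of each column for 99.95% of the values above the floor in control 1, and for 100% in the other libraries (tolerance 0.1 read). Up to 3 reads are hidden at the floor in control 1.

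The main test was limma 3.58.1 in R 4.3.3, with an intensity trend and two-sided p-values, on log2(value + 1) of the 12549 genes whose mean reached 10. Benjamini-Hochberg adjustment ran over all of them, and a gene was called under 0.05. A log2 change sets MCAO over control on that scale, where low genes change by less than their true fold. The SE given is the moderated one. Alternatives included edgeR 4.0.16 (TMM, quasi-likelihood), which called 520 genes on recovered reads, and DESeq2 1.42.0. The limma and edgeR steps were checked on simulated data. Members, classes, lists and motifs were chosen with earlier results of these data known. Named in full are up to 5 called members per class, by size of change, the member with most reads, and Tfeb; in other lists 2 genes are named, the most changed called ones or else those with most reads. Labels give no batch or pairing. Coordinates and promoters are from RefSeq. The value of 1 listed gene is not reported here.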

Additional observations from a re-analysis of the deposited data

How the results depend on the processing

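All 13 risen members kept their direction under the 17 alternatives that tested them, and 8 were called in each of those alternatives. The number of members called higher was 13 in the fit reported, 8 with no intensity trend, 9 to 14 when 1 library was left out (lowest without MCAO 3, highest without control 3), and 12 to 15 otherwise; the number called lower was 0 throughout. Genes called over the whole table numbered 387, but 157 with no intensity trend, 1002 with library weights, and 148 to 306 with 1 library left out. Library weights and the removal of the shallowest library of each group, control 2 and MCAO 2, were added after seeing the data, and both gave 15 members. With 1 library left out, class medians ran from 0.71 to 1.03 for peptidases, 0.40 to 0.69 for glycosidases, -0.29 to 0.0564 for sulfatases, -0.10 to 0.19 for lipid genes, 0.06 to 0.29 for membrane proteins and 1.16 to 1.31 for Grn with Tfeb. With a minimum mean of 50, fewer genes are in a class, and the medians were 0.43 for 8 glycosidases, -0.33 for 3 sulfatases and 1.72 for Grn alone. Without the shallowest pair Grn with Tfeb had 1.10. The uncalled genes Gaa, Psap and Lamp1 changed sign in some fits. With 1 library left out, Gaa ran from -0.22 to 0.0054, Psap from -0.40 to 0.0432 and Lamp1 from -0.0487 to 0.29. Without the shallowest pair Psap was at -0.45 (limma adjusted p = 0.0866) and Lamp1 at -0.0624. Library weights gave -0.31 for Psap, which was called in no alternative. No paired analysis was possible because the labels give the animals no shared numbers. The cause of these shifts was not tested. Low genes such as Ctsh rest on as few as 5 reads in a control, which limits the precision of their values.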
